A study of Mus musculus with 3 samples.

Results

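Tnf and 7 genes known as NF-κB targets or cytokine feedback inhibitors (Nfkbia, Nfkbiz, Tnfaip3, Tnfaip2, Icam1, Sod2 and Socs3) were followed in digested mouse liver after irreversible electroporation (IRE), an injury in which electric pulses kill the cells of a confined area. These 8 of the 19091 genes in the tables were chosen by name, and all 8 were detected in each of the 3 libraries. Cells were profiled by Drop-seq, which counts unique molecular identifiers (UMIs, 1 for each captured mRNA molecule) per gene and droplet barcode. All tissue came from adult C57BL/6 mice. The library labelled Sham_control was made after sham surgery with tissue taken at 1 day, from the same region of livers that had received no pulses. The libraries labelled IRE_1_dpi and IRE_7_dpi were made from the electroporated region 1 day and 7 days later, after 8 pulses of 50 ms, given at 75 V according to the labels and at 30 V according to the methods. Tissue of 3 livers was pooled for each library, so that each condition had 1 library, no test across animals was possible and no p-value is given. Levels are given in CPM, the UMIs of a gene per 1000000 UMIs of the barcodes counted, and every interval in brackets is a 95% interval that covers counting error only.

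TNF is a cytokine made mainly by myeloid cells and lymphocytes. Binding to its receptors activates the IKK kinases, which mark the inhibitor IκBα for destruction and so release NF-κB into the nucleus. NF-κB then switches on adhesion molecules, chemokines and survival genes together with its own inhibitors, so that the response limits itself. In liver, Kupffer cells and recruited leukocytes are known sources of TNF, and NF-κB activity protects hepatocytes from TNF-induced death. Nfkbia encodes IκBα itself. Nfkbiz encodes the nuclear IκBζ, a cofactor for a second wave of targets, and Tnfaip3 a ubiquitin-editing enzyme that shuts down signalling at the receptor. Tnfaip2 and Icam1 are TNF-induced targets, the latter the endothelial and leukocyte ligand of integrin αMβ2. Sod2 is the mitochondrial superoxide dismutase, and Socs3 is the feedback inhibitor of JAK-STAT signalling downstream of cytokines that act beside TNF.

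The sequences directly upstream of the start sites are shown because NF-κB and STAT factors act through short elements that are often found there. RefSeq promoters of the GRCm38.p6 build were found for 7 of the 8 genes, each reaching from 250 bases before the start site to 50 after it. Shown are up to 170 bases before the start, 5′ to 3′ on the strand of the gene and cut where an annotated exon begins. Capitals mark matches to the NF-κB decamer consensus (searched on both strands) in Nfkbia, Tnfaip3 and Sod2, to the STAT half-site pair TTCNNNGAA (also searched on both strands) in Icam1 and Socs3, and to TATAAA on the gene's strand in Tnf.
Tnf (chr17:35202008-35202177, minus strand): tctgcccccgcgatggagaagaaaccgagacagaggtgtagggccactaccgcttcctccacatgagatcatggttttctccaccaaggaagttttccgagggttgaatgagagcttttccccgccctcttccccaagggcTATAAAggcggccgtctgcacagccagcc
Nfkbia (chr12:55492648-55492817, minus strand): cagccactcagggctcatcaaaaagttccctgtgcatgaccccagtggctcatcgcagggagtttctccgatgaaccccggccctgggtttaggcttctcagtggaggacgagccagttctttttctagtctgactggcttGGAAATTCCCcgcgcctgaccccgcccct
Tnfaip3 (chr10:19015411-19015547, minus strand): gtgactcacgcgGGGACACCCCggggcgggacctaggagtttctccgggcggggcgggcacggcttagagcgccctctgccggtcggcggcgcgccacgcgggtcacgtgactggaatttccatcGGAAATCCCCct
Sod2 (chr17:13007669-13007816, plus strand): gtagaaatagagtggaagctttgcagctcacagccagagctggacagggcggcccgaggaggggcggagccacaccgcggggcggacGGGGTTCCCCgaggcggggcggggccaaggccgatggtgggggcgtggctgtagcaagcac
Icam1 (chr9:21015770-21015939, plus strand): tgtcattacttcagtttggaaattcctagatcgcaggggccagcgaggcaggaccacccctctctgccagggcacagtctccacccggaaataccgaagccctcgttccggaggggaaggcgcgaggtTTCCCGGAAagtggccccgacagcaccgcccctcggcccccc
Socs3 (chr11:117969452-117969536, minus strand): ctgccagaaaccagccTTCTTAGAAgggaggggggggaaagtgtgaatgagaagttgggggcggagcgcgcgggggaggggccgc

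The NF-κB decamer was matched in 4 of the 7 genes. It began 29 bases before the start of Nfkbia, 83 before that of Sod2, 125 and 12 before the upstream start of Tnfaip3, and 24 before the start of Tnfaip2, where the match lies in an annotated exon of the same gene and is not printed. Counted in the same way, with a gene matched when any of its promoters was, the decamer was found in 9.55% of the 27025 gene symbols with a RefSeq promoter of this length. TTCNNNGAA was matched in 3 of the 7 genes (Icam1, Sod2 and Socs3), against 9.55% of all symbols, and TATAAA on either strand in 4 of the 7, against 15.7%. The windows of Tnf, Icam1 and Socs3 held no match to the decamer consensus, which says nothing about elements farther away. Sites inside the windows that depart from the consensus were not searched, so no match does not mean that a window lacks an NF-κB site. These matches are descriptions of sequence.

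The libraries held 46331 barcodes, of which 25263 with at least 200 detected genes were kept (10386 in control, 9253 at 1 day and 5624 at 7 days after IRE), with 8013800, 6107866 and 3058967 UMIs and medians of 595, 509 and 456.5 UMIs per barcode. Barcodes were assigned to cell classes by a marker gate: hepatocytes by at least 10% of UMIs from hepatocyte genes, and every other class by the largest number of its markers, at least 2. The libraries stood apart in makeup. The library labelled Sham_control held 705 barcodes of the Gpnmb-Trem2 macrophage gate and 473 of the mesenchymal gate, with Postn, Cthrc1 and Aspn among its leading genes, against 53 and 3 at 7 days after IRE. Neutrophil-gated barcodes numbered 265 in control, 38 at 1 day and 1621 at 7 days after IRE, endothelial ones 1442, 3452 and 61, and hepatocytes 17, 264 and 0. The endothelial gate at 1 day after IRE was led by the platelet genes Ppbp, Gp9 and Gp1bb. Mitochondrial genes took 20.5% and 21.7% of UMIs in the first 2 libraries and 4.10% at 7 days after IRE, and a list of 15 genes known to be induced by tissue digestion took 0.330%, 0.218% and 0.575%. The libraries shared 44 to 149 kept barcodes in pairs. None of these differences can be told apart from the condition, since each condition is 1 library. Control here means the library labelled Sham_control, and every ratio to control rests on that label. The makeup of the libraries bears on the labels but cannot settle them, since each condition is 1 library. Monocyte-gated barcodes numbered 1535 in control, 102 at 1 day and 1103 at 7 days after IRE. In that order the Arg1 wound macrophage gate held 31, 16 and 814, and the Kupffer gate 1467, 2190 and 161. The neutrophil, monocyte and Arg1 gates were thus smallest in the 1-day library. The paper reports neutrophils gathering in liver and peritoneal wounds by the day after injury. Whether the labels of libraries were exchanged was not tested, and an exchange of the control and 7-day libraries would invert the ratios between them. An exchange that involved the 1-day library would change the ratios at 1 day after IRE and those between the injured libraries as well.

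At 7 days after IRE, 5 of the 8 genes stood at least 2-fold above control in the whole library: Nfkbiz, Socs3, Nfkbia, Tnf and Sod2. None was at least 2-fold below. Among the 10227 genes with at least 50 UMIs in these 2 libraries together, 8.79% were at least 2-fold higher and 21.8% at least 2-fold lower at 7 days after IRE. At 1 day after IRE none of the 8 was at least 2-fold above control, where 12.2% of all 11357 genes were, and 2 of the 8, Tnfaip3 and Socs3, were at least 2-fold below, where 5.86% of all genes were. Between the injured libraries, 5 of the 8 (Socs3, Nfkbiz, Tnf, Nfkbia and Tnfaip3) were at least 2-fold higher at 7 days than at 1 day after IRE and none was lower, against 11.6% and 27.8% of 10271 genes. In whole-library sums, fewer cells of a type and less RNA per cell cannot be told apart. The median log2 ratio of all genes was 0.04 at 1 day and −0.20 at 7 days after IRE against control, and −0.22 between the injured libraries.

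**Figure D1:**
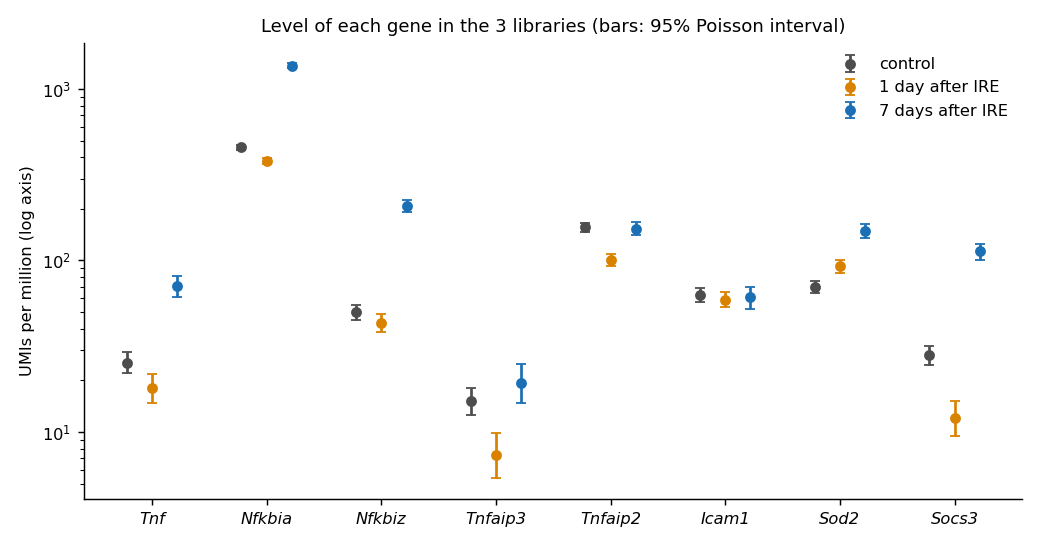
Level of the 8 genes in CPM (vertical, log axis) in the control library (grey), at 1 day (orange) and at 7 days after IRE (blue), with 95% Poisson intervals for counting error. The 7-day points of Tnf, Nfkbia, Nfkbiz, Sod2 and Socs3 lie above the other libraries, and the 3 points of Icam1 have overlapping intervals.

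Tnf, the ligand, gave 203 UMIs in control, 110 at 1 day and 216 at 7 days after IRE, or 25.3 (21.97 to 29.1), 18.01 (14.8 to 21.7) and 70.6 (61.5 to 80.7) CPM. It was lowest at 1 day after IRE, at 0.711 of the control level (0.559 to 0.901), and highest at 7 days after IRE, at 2.79 times control (2.29 to 3.39) and 3.92 times the level at 1 day (3.10 to 4.98). It was a sparse transcript in all 3 libraries. Among kept barcodes, 1.84% had a Tnf UMI in control, 1.10% at 1 day and 3.63% at 7 days after IRE, and no barcode had more than 3 such UMIs. In hepatocytes at 1 day after IRE, which are not known as a source of Tnf, the share was 0.379% (1 of 264 barcodes) at a median of 1342 UMIs. After each barcode had been thinned to 300 UMIs, which leaves out 209, 298 and 545 shallower barcodes, the shares were 0.698% (0.545 to 0.879), 0.648% (0.492 to 0.836) and 2.19% (1.80 to 2.63). At equal depth the control and 1-day shares thus had overlapping intervals, and the 7-day share lay above both.

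Nfkbia, the inhibitor that NF-κB induces to recapture itself, gave the most UMIs of the 8, with 3652 in control, 2322 at 1 day and 4179 at 7 days after IRE. Its level was 456 CPM in control (441 to 471), 380 at 1 day (365 to 396) and 1366 at 7 days after IRE (1325 to 1408). The 3 intervals did not overlap. The level at 1 day was 0.834 of control (0.792 to 0.879) and that at 7 days 2.998 times control (2.87 to 3.13). In thinned barcodes, 12.3% carried an Nfkbia UMI in control, 10.8% at 1 day and 31.6% at 7 days after IRE.

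Nfkbiz, the nuclear cofactor, was measured at 49.9 CPM in control (45.1 to 55.0), 43.1 at 1 day (38.0 to 48.6) and 207 at 7 days after IRE (191 to 224). Control and 1 day had overlapping intervals, with a ratio of 0.863 (0.736 to 1.01), whereas the 7-day level was 4.15 times control (3.65 to 4.71). Tnfaip3 did not share this 7-day difference. It gave only 121, 45 and 59 UMIs, or 15.1 (12.5 to 18.04), 7.37 (5.37 to 9.86) and 19.3 (14.7 to 24.9) CPM. The ratio to control was 0.488 at 1 day (0.339 to 0.692) and 1.28 at 7 days after IRE (0.919 to 1.76), so that the control and 7-day levels did not differ beyond counting error. The 2-fold difference at 1 day depended on the barcodes counted: with every deposited barcode the ratio was 0.577.

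Of the targets, Tnfaip2 and Icam1 did not share the 7-day difference. Tnfaip2 was at 156 CPM in control (147 to 165), 101 at 1 day (93.2 to 109) and 153 at 7 days after IRE (140 to 168), with a ratio to control of 0.648 at 1 day (0.588 to 0.714) and 0.984 at 7 days (0.883 to 1.09). Icam1 was at 62.9 (57.5 to 68.6), 59.1 (53.2 to 65.5) and 60.8 (52.4 to 70.2), and its ratios of 0.940 (0.819 to 1.08) and 0.967 (0.813 to 1.15) both had intervals that hold 1. Differences of Icam1 inside these intervals were not detectable at this depth. Sod2 was the only one of the 8 whose 1-day interval lay wholly above control. Its level was 70.3 CPM in control (64.6 to 76.3), 92.3 at 1 day (84.9 to 100) and 148 at 7 days after IRE (135 to 162), which is 1.31 times (1.17 to 1.48) and 2.11 times control (1.86 to 2.39). Without mitochondrial genes in the total, which took a smaller share at 7 days, the 7-day ratio of Sod2 was 1.75 and no longer 2-fold.

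Socs3 spanned the widest range between the injured libraries. Its level was 28.0 CPM in control (24.4 to 31.9), 12.1 at 1 day (9.51 to 15.2) and 113 at 7 days after IRE (101 to 125). The 1-day level was 0.433 of control (0.329 to 0.566), the 7-day level 4.03 times control (3.40 to 4.80), and the ratio of 7 days to 1 day was 9.31 (7.22 to 12.1). Counting only barcodes with at least 400 genes moved the 1-day ratio to 0.504.

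The UMIs of these genes lay in different classes in the 3 libraries. In control, the largest named share of Tnf was in the monocyte gate (22.7% of its UMIs) and the Kupffer gate (15.3%). The Kupffer gate held 31.8% at 1 day after IRE and the endothelial gate 27.3%, and at 7 days after IRE the neutrophil gate held 45.8%. The neutrophil gate also held the largest named share of Nfkbiz (51.0%), Tnfaip3 (40.7%), Socs3 (36.8%), Tnfaip2 (34.8%), Nfkbia (33.5%) and Sod2 (24.7%) at 7 days after IRE, while for Icam1 it was the monocyte gate (28.5%). These shares follow the size of the gate as well: of all UMIs, the neutrophil gate held 27.0% at 7 days, the Kupffer and endothelial gates 24.2% and 34.7% at 1 day, and the monocyte and Kupffer gates 12.7% and 17.7% in control. Sod2 lay below the neutrophil share of all UMIs, Tnf at 1 day below the endothelial share, and Tnf in control below the Kupffer share. Barcodes that passed no gate held 20.4% to 33.9% of the UMIs of each gene at that time. Sod2 at 1 day after IRE was set apart by hepatocytes, whose 264 barcodes held 21.3% of its UMIs and 10.1% of all UMIs. The Kupffer and endothelial gates held more Sod2 UMIs there, 147 and 142 against 120 in hepatocytes.

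**Figure D2:**
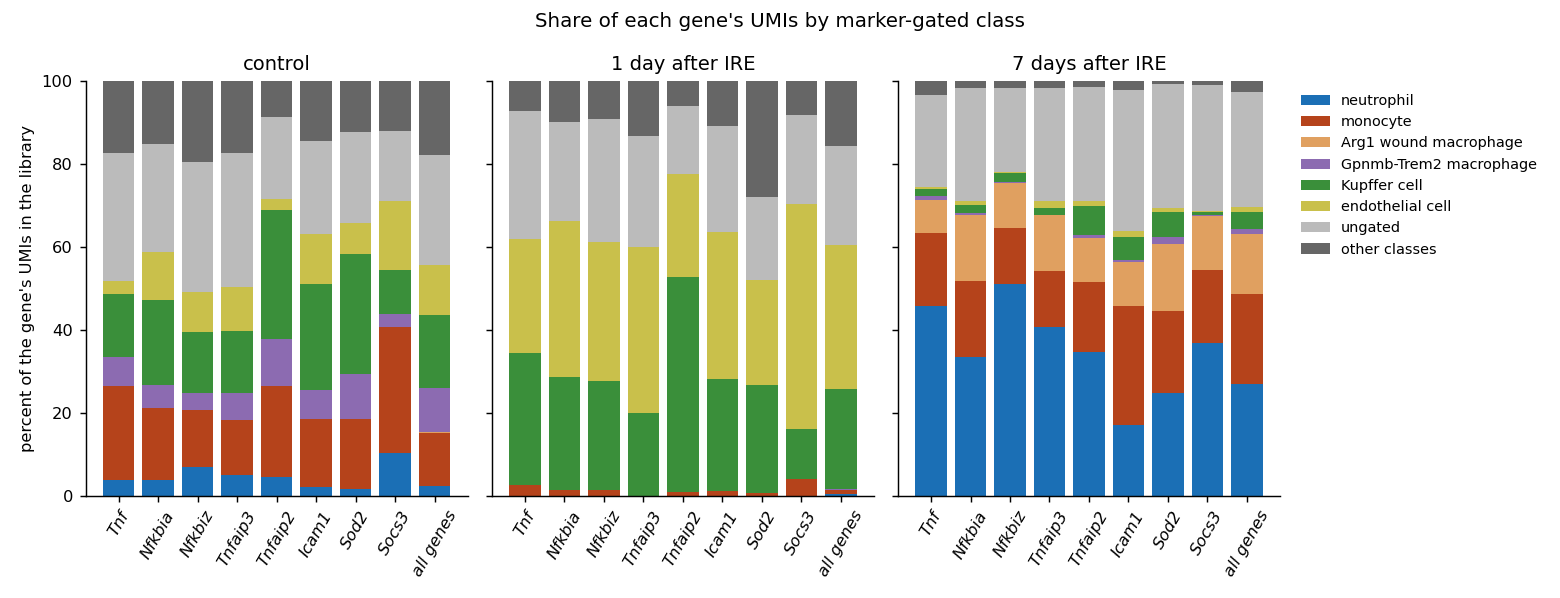
Percent of each gene's UMIs in a library (vertical) that lay in each marker-gated class, for the control library, 1 day and 7 days after IRE, with all genes as the last bar. The neutrophil share (blue) is the largest named share for 7 of the 8 genes at 7 days, 45.8% for Tnf and 51.0% for Nfkbiz, against 3.94% and 7.00% in control.

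Within the neutrophil gate, which had 265 barcodes in control, 1621 at 7 days and too few for a level at 1 day after IRE (38), 4 of the 8 genes were at least 2-fold higher at 7 days than in control: Tnf, Nfkbiz, Sod2 and Nfkbia. None was at least 2-fold lower. In this gate 23.6% of 4954 genes with at least 20 UMIs were at least 2-fold higher and 7.51% at least 2-fold lower. Tnf was at 41.7 CPM in control (18 to 82.2, from 8 UMIs) and 120 at 7 days after IRE (97.3 to 146), a ratio of 2.87 (1.40 to 6.84). Nfkbiz was at 146 (97.0 to 211) and 391 (349 to 436), a ratio of 2.68 (1.82 to 4.09). With barcodes above 20% mitochondrial UMIs left out, the ratios of Tnf and Nfkbiz were 5.69 and 4.23, the highest of the settings tried. The lowest were 2.25 and 2.10, and 2.04 for Sod2, when mitochondrial and hepatocyte genes were left out of the total. Nfkbia was at 730 (614 to 861) and 1696 (1608 to 1787), a ratio of 2.32 (1.95 to 2.79), which was 1.82 when mitochondrial and hepatocyte genes were left out of the total. Socs3, in contrast, was high in this gate in both libraries. It was at 120 (76.0 to 180) and 154 (128 to 183), a ratio of 1.28 (0.817 to 2.09) whose interval holds 1. Tnfaip2 was lower at 7 days, at 197 (168 to 230) against 292 (220 to 379), or 0.675 of control (0.496 to 0.932), and Sod2 was at 136 (112 to 163) against 52.1 (25 to 95.9), or 2.60 times control (1.36 to 5.57).

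In the monocyte gate (1535 barcodes in control, 102 at 1 day and 1103 at 7 days after IRE) only Nfkbiz was at least 2-fold higher at 7 days, where 12.8% of 6787 genes were, and only Tnfaip2 at least 2-fold lower, where 9.12% were. Nfkbiz was at 54.2 CPM in control (40.8 to 70.5) and 128 at 7 days after IRE (102 to 158), a ratio of 2.36 (1.66 to 3.38), or 1.88 without mitochondrial and hepatocyte genes in the total. Tnfaip2 was at 270 (239 to 304) and 119 (94.1 to 148), a ratio of 0.440 (0.338 to 0.567). The whole-library level of Tnfaip2, nearly equal in control and at 7 days, therefore covered a lower level in both neutrophil- and monocyte-gated barcodes. The neutrophil ratio ran from 0.530 to 0.916 over the settings tried. Tnfaip2 was higher at 7 days in barcodes that passed no gate (1.30, 1.04 to 1.61) and in the endothelial gate (3.885, 1.19 to 9.985, from 5 UMIs). In the Kupffer, Gpnmb-Trem2 macrophage and T cell gates the intervals hold 1. Nfkbia was 1.84 times control (1.65 to 2.05) in this gate, and Tnf (1.26, 0.799 to 1.98) and Socs3 (1.37, 0.954 to 1.97) had intervals that hold 1.

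In the Kupffer gate, the resident macrophages of the sinusoids (1467 barcodes in control, 2190 at 1 day and 161 at 7 days after IRE), none of the 8 genes was at least 2-fold higher at 1 day, against 12.4% of 9175 genes, and Tnfaip3 and Socs3 were at least 2-fold lower, against 3.74%. Socs3 was at 16.9 CPM in control (10.9 to 25.2) and 6.08 at 1 day after IRE (2.78 to 11.6), a ratio of 0.359 (0.147 to 0.800). Tnfaip3 rested on 18 and 9 UMIs, with a ratio of 0.479 (0.190 to 1.12) that was 0.619 when barcodes above 20% mitochondrial UMIs were left out. Tnf, at 21.9 and 23.7, had a ratio of 1.08 (0.648 to 1.81), and Nfkbia was at 0.812 of control (0.729 to 0.904). At 7 days after IRE, 1 of the 7 genes with enough UMIs, Nfkbiz, was at least 2-fold higher (10.4% of 6874 genes) and none at least 2-fold lower (16.2%). Nfkbiz was there at 105 (55.8 to 179) against 41.6 (31.7 to 53.7), a ratio of 2.52 (1.27 to 4.64) from 13 and 59 UMIs. Sod2 was at 218 (143 to 317) against 115 (98.0 to 134), a ratio of 1.89 (1.21 to 2.86). It ran from 1.66 to 2.52 over the settings tried, with the highest value without the 5% of barcodes with the most UMIs.

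The 10 leading genes of the endothelial gate at 1 day after IRE held the platelet genes Ppbp, Gp9, Gp1bb, Itga2b and Pf4 against 3 markers of the gate, so that the values below are those of the barcodes gated and not of endothelial cells alone. In this gate at 1 day after IRE, Tnf and Tnfaip2 were at least 2-fold higher than in control, against 12.1% of 9896 genes, and Socs3 at least 2-fold lower, against 3.17%. Tnfaip2 was at 35.5 CPM in control (24.6 to 49.7) and 72.1 at 1 day (61.2 to 84.5), a ratio of 2.03 (1.39 to 3.04). Tnf rested on 6 and 30 UMIs, at 6.27 (2.30 to 13.7) and 14.1 (9.54 to 20.2), with a ratio of 2.26 (0.924 to 6.63) whose interval holds 1. Socs3 was at 38.7 (27.2 to 53.3) and 18.9 (13.5 to 25.7), a ratio of 0.488 (0.304 to 0.784). These differences moved with the barcodes counted: when barcodes above 20% mitochondrial UMIs were left out, the Socs3 ratio was 0.953 and that of Tnfaip2 1.65. The Tnf ratio ran from 2.03 to 3.15 over the settings tried. Icam1, a classical endothelial adhesion molecule, was at 63.7 (48.8 to 81.9) and 60.3 (50.4 to 71.8), with a ratio of 0.947 (0.693 to 1.31). Clec4f, a marker of Kupffer cells, was at 916 CPM in this gate at 1 day after IRE and at 231 in control, and the part of RNA from other cells in these differences was not tested.

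**Figure D3:**
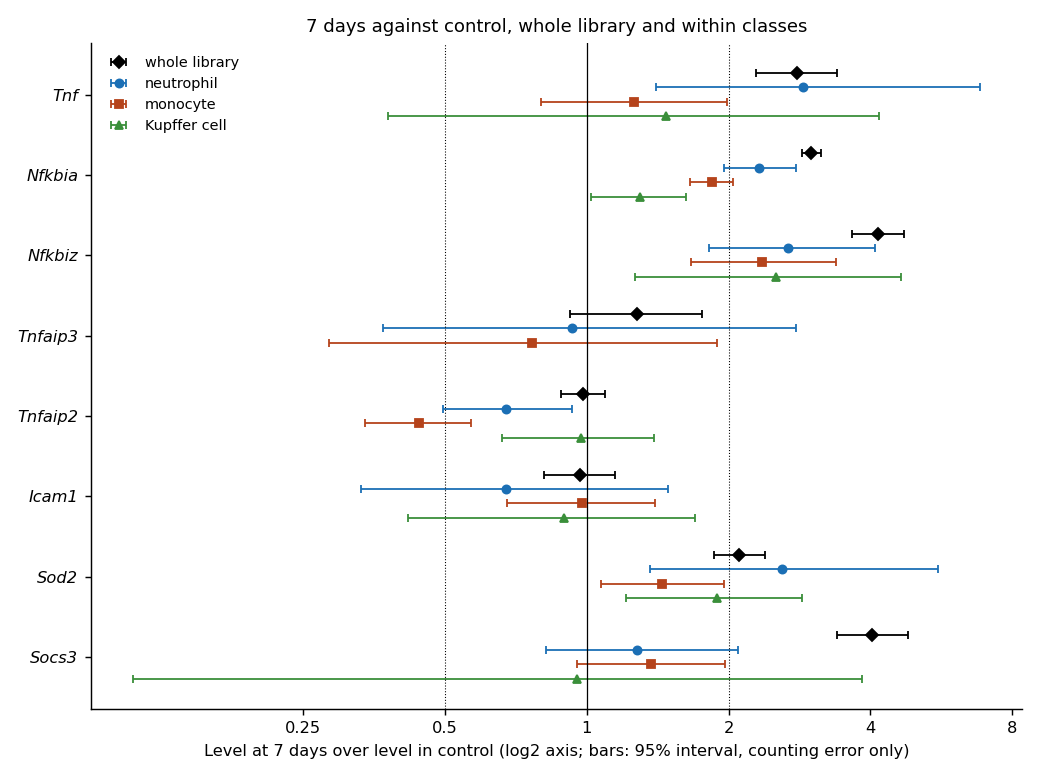
Level at 7 days after IRE over the level in control (horizontal, log2 axis) for each gene in the whole library (black), the neutrophil gate (blue), the monocyte gate (red) and the Kupffer gate (green), where at least 20 UMIs were counted. Bars are 95% intervals for counting error and dotted lines mark 2-fold. Socs3 stands at 4.03 in the whole library and at 1.28 and 1.37 in the neutrophil and monocyte gates.

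The whole-library ratios therefore combined levels within classes and the mix of classes. When each class was held at its control level and only the mix of the 7-day library was applied, Socs3 came to 2.09 times control, Nfkbiz to 1.63, Tnf to 1.44, Nfkbia to 1.28 and Sod2 to 0.959. The observed 7-day levels exceeded those values by factors of 1.93, 2.54, 1.94, 2.33 and 2.20. For Tnfaip2 the mix alone gave 1.25 times control and the observed level was 0.788 of that, and for Icam1 the values were 0.947 and 1.021. For Tnf at 1 day after IRE the mix alone gave 0.672, and the observed level was 1.06 times that value. For Socs3 and Tnfaip3 the mix gave 0.859 and 0.9003, and the observed levels were 0.505 and 0.542 of those. The Arg1 wound macrophage gate, with 814 barcodes at 7 days, held 31 barcodes and 29158 UMIs in control, under the 50 barcodes set as a minimum for a level, and it held 14.5% of all UMIs at 7 days, so that its part in these values rests on few counts. Barcodes that passed no gate entered this calculation as 1 class, in which Socs3 was at 17.9 CPM in control and 123 at 7 days after IRE (a ratio of 6.89, 4.71 to 10.3) and Nfkbia at 449 and 1341 (2.99, 2.74 to 3.26). A change in the makeup of that class cannot be told apart from a change in level.

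The order of the classes differed from gene to gene. In control, the levels of Tnf ran from T cells (57.4), monocytes (45.3), neutrophils (41.7) and conventional dendritic cells (39.6) down to the mesenchymal (7.69) and endothelial gates (6.27), and none of the first 4 differed from its neighbour beyond counting error. The T cell level was 19.4 when barcodes above 20% mitochondrial UMIs were left out. None of 59 plasmacytoid dendritic cell barcodes, at a median of 466 UMIs, held a Tnf UMI, which allows up to 5.08% of such barcodes with a UMI and says less of cells that express the gene. At 7 days after IRE neutrophils (120) and T cells (113, from 4 UMIs) led, again without a difference between them (1.06, 0.402 to 3.98). Nfkbia was highest in neutrophils at that time, 1.13 times (1.03 to 1.24) the level of the Arg1 wound macrophage gate (1497), which was in turn 1.30 times (1.17 to 1.44) that of monocytes (1151). Nfkbiz was set apart most clearly: it led in neutrophils over T cells in control, 2.26 times (1.21 to 4.34), and over Arg1 wound macrophages at 7 days after IRE, 2.48 times (1.91 to 3.25).

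Socs3 was highest in neutrophils in control, where it did not differ from plasmacytoid dendritic cells (3 UMIs) beyond counting error, and at 7 days after IRE, where it exceeded the Arg1 wound macrophages (101, 74.0 to 136) 1.51 times (1.07 to 2.18). The targets had other leading classes. Tnfaip2 was shared by neutrophils (292), Kupffer cells (273) and monocytes (270) in control, the last of these 1.602 times (1.30 to 1.98) the Gpnmb-Trem2 macrophages (169). Kupffer cells led for it at 1 day (216, 193 to 241) and at 7 days after IRE (266, 183 to 374), though not beyond counting error over the next class. Icam1 was led by Kupffer cells (90.3) and monocytes (81.8) in control without a difference between them (1.10, 0.831 to 1.47). Sod2 was led by Kupffer cells in control (115), without a difference from monocytes (1.23, 0.948 to 1.599), and by hepatocytes at 1 day after IRE, at 194 CPM (161 to 232), 1.95 times (1.52 to 2.505) the Kupffer level. The inhibitor and the ligand were low in hepatocytes, with 116 CPM of Nfkbia (91.2 to 147) and 1.62 of Tnf (0.0410 to 9.02) at 1 day after IRE, the lowest Nfkbia level of any class there. Tnfaip3 was too sparse for an order, as no leading class differed from the next beyond counting error.

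**Figure D4:**
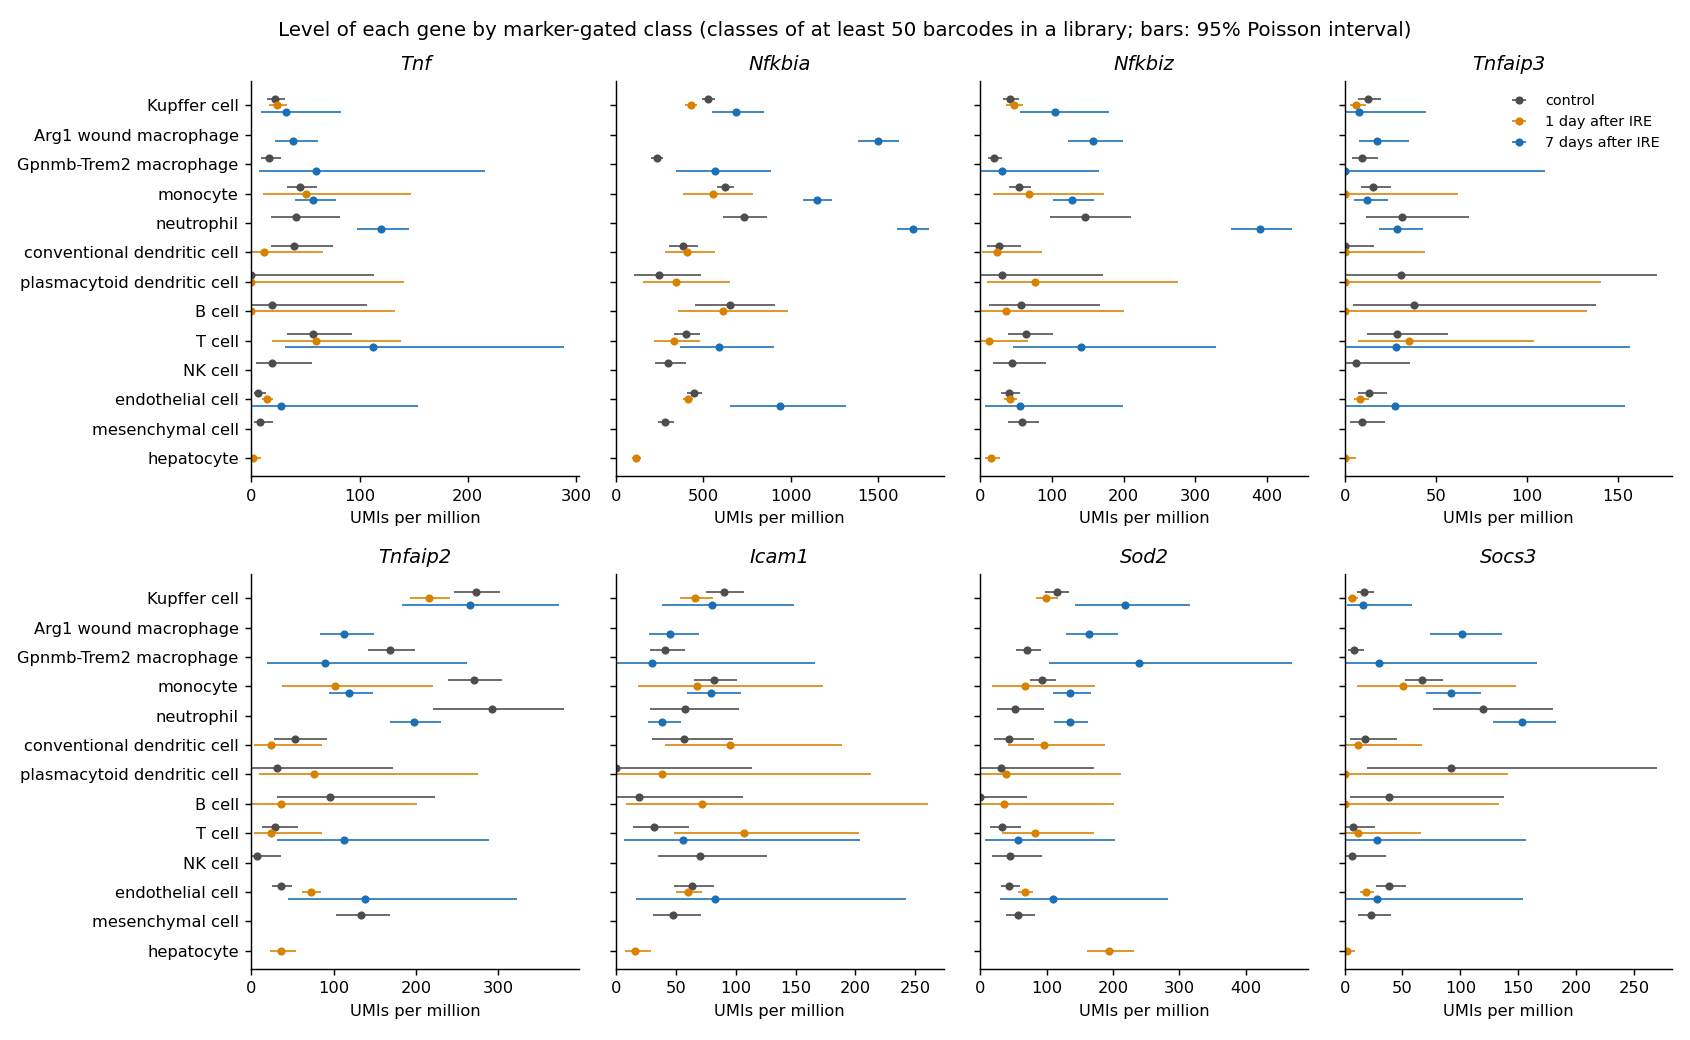
Level of each gene in CPM (horizontal) by marker-gated class (vertical) in the control library (grey), at 1 day (orange) and 7 days after IRE (blue), for classes of at least 50 barcodes, with 95% Poisson intervals. Nfkbiz in the neutrophil gate at 7 days (391) stands apart from the other classes, and Tnfaip2 in the monocyte gate is at 270 in control and 119 at 7 days.

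A neutrophil transcript was counted in every class at 7 days after IRE. S100a8, an abundant neutrophil transcript that no gate used, stood at 48561 CPM in the neutrophil gate and at 4744 to 9190 in the 6 other classes of at least 50 barcodes, or 9.77% to 18.9% of the neutrophil level. In control it was at 44064 in the neutrophil gate and at 365 to 1631 in the 10 other classes. The 8 genes can be read against this share, which does not gauge RNA from cells other than neutrophils. Any S100a8 that the 6 classes made themselves would be part of it, and this was not tested. The share was highest in the Arg1 wound macrophage and monocyte gates (9190 and 8135 CPM). Nfkbia in the same 6 classes was at 33.4% to 88.3% of its neutrophil level, above S100a8 in each. Its level at 7 days after IRE was 2018 CPM in barcodes with fewer than 200 genes and 1696 in the neutrophil gate. Whether the 6 classes made Nfkbia themselves was not tested. Nfkbiz was at 40.4% (30.7 to 52.4) of its neutrophil level in Arg1 wound macrophages, 32.7% (25.5 to 41.7) in monocytes and 26.8% (14.1 to 46.5) in Kupffer cells, against 18.9%, 16.7% and 11.7% for S100a8. In the other 3 classes its intervals included the S100a8 share, at 7.64% (0.193 to 42.9, 1 UMI) against 9.77% in Gpnmb-Trem2 macrophages, 14.1% (1.70 to 51.5, 2 UMIs) against 13.4% in the endothelial gate and 36.1% (11.6 to 85.0, 5 UMIs) against 12.9% in T cells. The 7-day ratios of Nfkbiz to control in monocytes (2.36) and Kupffer cells (2.52) were not adjusted for neutrophil RNA. The part of such RNA in them was not tested. Socs3 was at 66.0% (45.9 to 93.4) in Arg1 wound macrophages and 59.8% (43.3 to 81.7) in monocytes. In Kupffer cells it was at 10.5% (1.26 to 38.7, 2 UMIs), with an interval that includes the S100a8 share. Tnf in Kupffer cells at 7 days after IRE, 4 UMIs, was at 26.9% with an interval of 7.19 to 71.2 that includes the S100a8 share. Its intervals also included that share in Arg1 wound macrophages, Gpnmb-Trem2 macrophages and the endothelial gate. They lay above it in monocytes, at 47.8% (32.0 to 70.1), and in T cells, at 94.1% (25.2 to 249, 4 UMIs).

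Barcodes with fewer than 200 genes, which can hold free RNA as well as shallow cells, carried the genes too. At 7 days after IRE these 6842 barcodes had 33.2% of the UMIs of the library and gave 114 CPM of Tnf (97.4 to 132), 2018 of Nfkbia (1948 to 2091), 387 of Nfkbiz (356 to 419) and 173 of Socs3 (153 to 195), all above the levels of the kept barcodes. Sod2 was below its level in kept barcodes there, at 112 (95.6 to 130), and Icam1 was at 48.6 (38.2 to 61.1).

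Cells with a Tnf UMI were compared with cells without one after thinning to 300 UMIs. Among neutrophil-gated barcodes at 7 days after IRE, 15 of 57 with Tnf (26.3%, 15.5 to 39.7) and 528 of 1463 without it (36.1%, 33.6 to 38.6) carried Nfkbia. For Nfkbiz the shares were 15.8% (7.48 to 27.9) and 11.2% (9.64 to 12.9). The intervals overlapped for both, and likewise for the other 5 genes in this gate. Over all kept barcodes at 7 days after IRE, Nfkbiz was found in 13.5% of barcodes with Tnf (7.77 to 21.3) and in 6.48% of those without (5.81 to 7.20). For the other 6 genes the intervals overlapped there, as for Nfkbia at 31.5% (23.0 to 41.0) and 31.6% (30.3 to 32.9). The same comparison of Nfkbiz in control gave 5.63% (1.56 to 13.8, 4 barcodes) and 1.46% (1.24 to 1.72), with overlapping intervals. These shares mix the classes, and within neutrophils the corresponding intervals overlapped. At least 2 of the 8 genes were found in 2.43% of thinned barcodes in control (2.14 to 2.75), 1.54% at 1 day (1.30 to 1.82) and 8.31% at 7 days after IRE (7.56 to 9.10). Among neutrophil-gated barcodes the share was 12.5% at 7 days (10.9 to 14.3) and 7.63% in control (4.72 to 11.5), with overlapping intervals.

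The other genes of the pathway were followed in 7 lists of 74 genes written from general knowledge, with a list of 15 digestion-induced genes beside them. The lists were chosen with earlier results of these data known, so that their counts are descriptions. They are set beside the medians and shares of all genes given above. The receptors and kinases upstream stayed within 2-fold of control at 7 days after IRE. Of 9 TNF receptors and adaptors and of 8 IKK and Rel subunits none was at least 2-fold from control, with median log2 ratios of 0.10 and 0.18. At 1 day after IRE Tnfrsf1b, the TNF receptor of leukocytes, was at 26.4 CPM against 59.1 in control (ratio 0.446), and at 7 days after IRE at 97.1 (1.64), 3.68 times the 1-day level. Nfkb2 was 2.35 times higher at 7 days than at 1 day after IRE.

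Among 12 other NF-κB inhibitors, 4 were at least 2-fold higher than control at 7 days after IRE and 1 lower, with a median log2 ratio of 0.54. Zfp36, which destabilizes Tnf mRNA, was at 435 CPM against 128 (3.40 times), Zc3h12a, an RNase that degrades inflammatory mRNAs, at 24.5 against 7.99 (3.07 times), and Nfkbid, another nuclear IκB, at 64.7 against 25.1 (2.58 times). Tnip3, a partner of the Tnfaip3 protein, was lower, at 5.56 against 12.98 (0.428). Tnip3 (0.252) and Nfkbid (0.477) were at least 2-fold lower at 1 day after IRE and none of the 12 higher.

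Of 20 other NF-κB target genes, 18 had at least 50 UMIs in control and at 7 days together, and 11 of these were at least 2-fold higher at 7 days after IRE, with a median log2 ratio of 1.84. Cxcl2, a neutrophil chemoattractant, was at 5222 CPM against 58.0 in control, 90.0 times higher, and Ptgs2, the inducible cyclooxygenase, at 90.9 against 4.49 (20.2 times). Nos2, the inducible nitric oxide synthase, gave 83 UMIs at 7 days and 2 in control, a ratio of 109 (29.2 to 913). Vcam1, an adhesion molecule of endothelium and Kupffer cells, was lower, at 42.8 against 190 (0.225). At 1 day after IRE none of 16 targets was at least 2-fold higher, and Bcl2a1b (0.327) and Ccl3 (0.487) were lower. The 7-day ratios of Tnf, Nfkbia and Nfkbiz lay on the side of the list's median, and those of Icam1 and Tnfaip2 had intervals that hold 1.

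Of 13 genes of the JAK-STAT pathway and SOCS family with enough UMIs, 5 were at least 2-fold higher than control at 7 days after IRE and 1 lower. Osm, a cytokine of myeloid cells that signals through this pathway, was at 320 CPM against 13.1 (24.4 times), Pim1, a STAT target kinase, at 373 against 86.4 (4.32 times), and Cish, another SOCS family inhibitor, at 44.1 against 14.4 (3.07 times). Il6st, the signalling receptor subunit of this cytokine family, was at 47.4 against 166 (0.286), having been at 307 at 1 day after IRE. Osm (0.300), Pim1 (0.434) and Il10ra (0.492) were at least 2-fold lower than control at 1 day, as Socs3 was. Socs1 was 2.53 times higher at 7 days than at 1 day after IRE.

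Of 6 other superoxide and peroxide enzymes none was at least 2-fold higher than control at 7 days after IRE, and the cytosolic Sod1 (175 CPM against 392, ratio 0.446) and the extracellular Sod3 (0.342, from 9 and 69 UMIs) were lower. Prdx1 and Prdx3, peroxiredoxins of cytosol and mitochondria named after their values were seen, were at 1.73 (1.66 to 1.80) and 1.41 times control (1.08 to 1.84), with intervals above 1. Cat, the peroxisomal catalase abundant in hepatocytes, was 4.93 times control at 1 day after IRE, in the library with 264 hepatocyte barcodes. Of the partners and relatives of Icam1, the integrin chains Itgam (942 against 174, 5.42 times) and Itgb2 (371 against 139, 2.68 times) were higher at 7 days after IRE, and Icam2 (0.384) and Itgal (0.496) lower. Itgam at 1 day after IRE was at 0.171 of control.

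**Figure D5:**
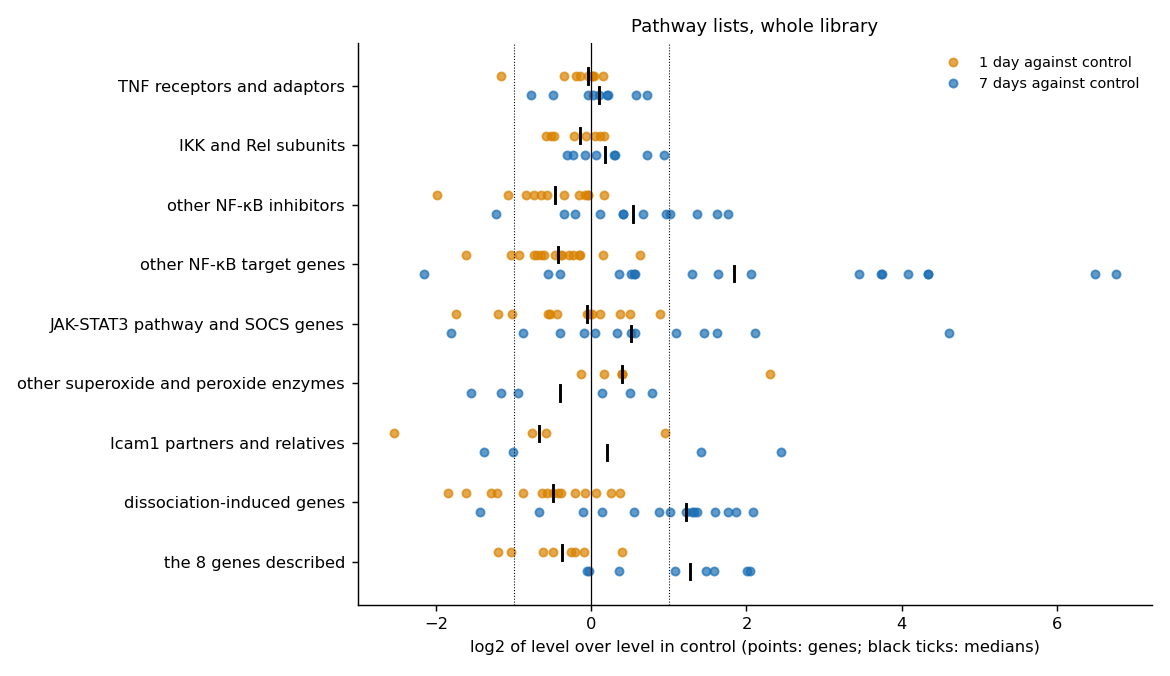
log2 of the level over control (horizontal) for the genes of each pathway list and for the 8 genes described (vertical), at 1 day (orange) and 7 days after IRE (blue), each point 1 gene with at least 50 UMIs and black ticks the medians. At 7 days the median of the other NF-κB targets is 1.84, that of the IKK and Rel subunits 0.18 and that of the digestion-induced genes 1.22.

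Digestion-induced genes differed between the libraries in the same directions. Of the 15, 9 were at least 2-fold higher than control at 7 days after IRE and 1, Hspa1b, lower, with a median log2 ratio of 1.22, and at 1 day after IRE none was higher and 4 lower, with a median of −0.49. Egr1 was at 279 CPM at 7 days against 65.5 in control (4.26 times), Dusp1 at 398 against 109 (3.63 times) and Junb at 597 against 176 (3.39 times). Atf3 (0.278) and Hsp90aa1 (0.408) were lower than control at 1 day. Cells were digested for 30 min at 37 °C before capture in each condition. The part of digestion in the levels of Tnf, Nfkbia, Nfkbiz and Socs3 was not tested.

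The genes most like each of the 8 over the 26 class-by-library levels are given as a description, by Pearson's r of log2(CPM + 10) among 4723 genes with at least 500 UMIs. The points share libraries and depth, and for sparse genes r follows few UMIs. Nfkbia was most like Srgn (r = 0.88), Skil (0.85) and Slfn2 (0.85), Nfkbiz most like Mxd1 (0.85), Osm (0.80) and Stfa2l1 (0.79), and Tnf most like Nabp1 (0.91), Cfl1 (0.83) and Emb (0.83). Clec4a3 (0.78) and Fcgr4 (0.78) were among the genes most like Tnfaip2. Socs3 was most like Fbxl5 (0.81), Fos (0.78) and Trim30d (0.78), and Sod2 most like Bsg (0.83), Apoc2 (0.83) and Tmbim6 (0.81). For Icam1 these were Mapre2 (0.87), Usp8 (0.82) and Secisbp2l (0.79), and for Tnfaip3, with 225 UMIs in all, Cast (0.76), Sorl1 (0.71) and Chd1 (0.69). Among the 8 themselves, Nfkbia and Nfkbiz were most alike (0.78), followed by Nfkbia with Socs3 (0.64) and Nfkbiz with Socs3 (0.61), while Tnfaip3 and Sod2 (−0.27) ran apart.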

How the data were processed

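Drop-seq libraries of digested liver, 1 per condition, were analysed from the deposited tables. According to the file headers, the authors counted UMIs per gene and barcode from reads of mapping quality 10 or more, merging UMIs within an edit distance of 1, and the deposited values are counts without normalization. The submitters' processing notes name STAR 2.5.2a and the hg19 build, although the gene symbols are those of mouse, so that no coordinates were taken from the tables. The annotation is not given in the sources used here. Coordinates of the promoters are those of RefSeq, GRCm38.p6. An estimated 1000 cells entered each tagmentation according to the labels, and the tables hold many more barcodes.

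Counts were summed over barcodes with at least 200 genes, per library and per marker gate, with Python 3.11.15, numpy 2.4.6, scipy 1.17.1 and pandas 2.3.3, and figures were drawn with matplotlib 3.10.9. Of 131 gate markers, 128 were in the tables. Sums have exact Poisson intervals, shares exact Clopper-Pearson intervals and ratios conditional binomial intervals. A floor of 3 counts was used, and no ratio is given where both counts are at or under it. A ratio of 2 with at least 50 UMIs (20 within a gate) stands in for a test. The functions were tested on simulated data. Doublets were kept and were lessened in an alternative by leaving out the 5% of barcodes with the most UMIs. Barcodes with more than 1 cell can carry the genes of both. The 8 genes, the gates and the lists were chosen with earlier results of these data known. Named were the 8 genes, of each list and comparison up to 3 genes with the largest rise and 3 with the largest fall past 2-fold, and the 3 most like genes. A gene that this rule names is not reported here.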

Additional observations from a re-analysis of the deposited data

Results flagged for a closer look

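Tnf, Nfkbia and Socs3 lay below control at 1 day and above it at 7 days after IRE, at ratios of 0.711 and 2.79, 0.834 and 2.998, and 0.433 and 4.03, with intervals that exclude 1 on either side. The difference between these ratios was not tested, both are taken against the same control library, and each time point is 1 library.

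Barcodes with fewer than 200 genes also differed between 7 days after IRE and control, with intervals of the ratio above 1. The ratio was 6.14 for Nfkbiz, 5.35 for Nfkbia, 4.26 for Socs3, 3.70 for Tnf, 3.67 for Tnfaip3, 3.01 for Sod2 and 2.495 for Tnfaip2. For Tnfaip3 and Tnfaip2 the kept barcodes gave 1.28 and 0.984.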

How the results depend on the processing

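No paired analysis was possible because each condition had 1 library, and for the same reason no replicate could be left out. Of the recomputed counts of genes at least 2-fold apart, 106 were within 1.5 times of the count reported and 18 were not, and of the recomputed levels and ratios of single genes, 570 stayed inside the reported interval and 58 left it. No ratio that was at least 2-fold changed direction. All 5 genes above control at 7 days after IRE in the whole library were reduced to 4 in some settings, where Sod2 fell to 1.75 to 1.99 times control.

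At 1 day after IRE the count of genes at least 2-fold below control was 1 instead of 2 with every deposited barcode, with at least 400 genes, without mitochondrial and hepatocyte genes in the total, without the 5% of barcodes with the most UMIs and, chosen after seeing the data, without barcodes that another library also holds. In the Kupffer gate at 1 day that count was 1 with a gate of 1 marker, with at most 20% mitochondrial UMIs, without mitochondrial and hepatocyte genes and without the 5% of largest barcodes. At 7 days after IRE the Kupffer count above control was 3 without the 5% of largest barcodes and 2 without shared barcodes, the monocyte count above control was 0 without mitochondrial and hepatocyte genes, and the neutrophil count below control was 1 (Icam1, at 0.417) with at most 20% mitochondrial UMIs. In the endothelial gate at 1 day the count above control was 1 with a gate of 1 marker or a hepatocyte gate of 20%, where Tnfaip2 was at 1.89 and 1.897, and 0 with at most 20% mitochondrial UMIs, where Tnfaip2 was at 1.65 and Tnf, at 2.43, had fewer than the 20 UMIs required, and the count below control was 0 with at most 20% mitochondrial UMIs or without mitochondrial and hepatocyte genes. The cause was not tested beyond the construction of each setting. Tnfaip3, with 225 UMIs in all, and the 7-day Kupffer and T cell gates were the values that depth limited most.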
